A study of Mus musculus with 19 samples.

Results

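The genes described here encode the cytokine receptors through which myeloid progenitors receive their growth signals: Csf1r, Flt3, Csf3r, Csf2ra, Il3ra and Csf2rb. They were chosen by name, and the level of each was taken from the exon-level probe sets annotated to it alone or under an older synonym. Of the 6 genes, 5 were measured, by 81 of the 179595 probe sets that carry 1 gene symbol. Csf1r had 28 probe sets, Flt3 26, Csf3r 10, Il3ra 10 and Csf2rb 7, while no probe set carried the symbol of Csf2ra, the binding chain for GM-CSF, which was therefore not analysed here. Csf2rb2, the paralogue that lies beside Csf2rb in the mouse genome, had 7 probe sets and is given beside it.

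RNA was profiled on 19 Affymetrix mouse exon arrays, each from progenitors sorted out of whole mouse bone marrow. The arrays comprised PR+/- Dnmt3a-/- GMP (4 arrays), PR+/- GMP (2), Dnmt3a-/- GMP (3), WT GMP (4), Dnmt3a-/- CMP (3) and WT CMP (3). CMP are common myeloid progenitors, and GMP are the granulocyte-monocyte progenitors that arise from them. WT and Dnmt3a-/- mice were on the C57Bl/6J background, and the sources used here do not give a strain for the PR+/- groups or an age for any group. PR stands for PML-RARA as far as the title of the series tells; neither the way this fusion was expressed nor the way Dnmt3a, a DNA methyltransferase, was deleted is given. By its title, the series concerns the need for Dnmt3a when this fusion causes acute promyelocytic leukaemia. Whether each array stands for an animal of its own is not stated, and p-values cover the spread among these samples, which may be technical.

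Csf1r and Flt3 are receptor tyrosine kinases. Csf1r binds M-CSF (Csf1) and carries monocytes and macrophages through their development, and Flt3 binds Flt3l and marks multipotent, lymphoid and dendritic precursors. Csf3r, Il3ra and Csf2rb belong to the haematopoietin receptors, which have no kinase of their own and signal through Jak2 and Stat5 or Stat3. Csf3r binds G-CSF and drives granulocyte production. Il3ra binds IL-3 but signals only with a beta chain: Csf2rb is shared by the receptors for IL-3, GM-CSF and IL-5, and the mouse has a second beta chain, Csf2rb2, that serves IL-3. Csf2rb and Csf2rb2 are near-identical in sequence, so probe sets may bind RNA of both, and values of the pair are uncertain to that extent.

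The deleted gene and the sort were checked first. Dnmt3a lay between 5.82 and 6.26 on the log2 intensity scale in PR+/- Dnmt3a-/- GMP, 6.06 and 6.22 in Dnmt3a-/- GMP, and 6.37 and 6.49 in Dnmt3a-/- CMP, against 7.07 to 7.65 over the arrays of the 3 groups with Dnmt3a; which of its probe sets lie in the deleted stretch is not given. Fcgr3, one of the Fc receptors by which GMP are sorted from CMP, lay between 8.60 and 10.12 on the GMP arrays and between 5.72 and 7.80 on the CMP arrays, and the progenitor receptor Kit was at 8.86 or more on every array. The median level of 939 olfactory and vomeronasal receptor genes, 2.68, was taken as background, and every measured receptor averaged above it. Some arrays stood apart from others of their group. The mean of 14 immediate early and heat shock genes was 9.02 in WT CMP replicate 1, 7.84 and 7.92 in WT GMP replicates 1 and 2, and 8.80 and 8.72 in PR+/- Dnmt3a-/- GMP replicates 1 and 2, against 6.12 to 7.28 on the other 14 arrays. Y-linked genes were low on all 6 Dnmt3a-/- arrays without PR and on 1 array each of WT CMP, WT GMP and PR+/- Dnmt3a-/- GMP. Their level thus went largely with the genotype in Dnmt3a-/- against WT. With this level as a covariate, limma called 63 genes in Dnmt3a-/- against WT CMP, against 203 without it, and 48 in GMP, against 210. That fit was looked at gene by gene only for the measured receptors and Csf2rb2. Labels of the PR+/- arrays are written in a style of their own, and an effect of array run and of PR+/- cannot be told apart. Numbers in the titles, whose meaning is not stated, ran from 22298 to 22303 on the Dnmt3a-/- arrays and from 21986 to 22012 on the WT arrays, so whatever they mark cannot be told apart from the genotype.

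The promoters of Il3ra and Csf2rb2, which both rose in PR+/- against WT GMP, are shown with those of Flt3, which differed most between GMP and CMP, and of Csf3r. Each is the 250 bases before a RefSeq start on GRCm38.p6, read 5′ to 3′ on the strand of the gene. The windows of Il3ra and Csf3r lie inside the span of the gene, which begins at 14345912 and 126023441. Sequence before other starts was not looked at. Capitals mark a match, on either strand, to GAGGAA (a core bound by PU.1 and other ETS factors; TTCCTC on the opposite strand) or to TTGCNNAA (a C/EBP core).
Il3ra, chr14:14346245-14346494, plus strand: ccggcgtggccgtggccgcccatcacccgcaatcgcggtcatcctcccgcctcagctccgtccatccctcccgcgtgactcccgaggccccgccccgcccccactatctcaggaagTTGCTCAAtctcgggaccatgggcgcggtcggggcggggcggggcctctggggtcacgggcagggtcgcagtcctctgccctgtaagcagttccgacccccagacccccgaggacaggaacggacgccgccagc
Csf2rb2, chr15:78305722-78305971, minus strand: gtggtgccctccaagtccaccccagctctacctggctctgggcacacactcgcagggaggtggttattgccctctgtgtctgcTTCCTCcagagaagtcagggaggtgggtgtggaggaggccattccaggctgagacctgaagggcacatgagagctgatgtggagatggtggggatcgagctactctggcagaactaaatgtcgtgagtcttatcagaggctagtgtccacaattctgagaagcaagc
Flt3, chr5:147400490-147400739, minus strand: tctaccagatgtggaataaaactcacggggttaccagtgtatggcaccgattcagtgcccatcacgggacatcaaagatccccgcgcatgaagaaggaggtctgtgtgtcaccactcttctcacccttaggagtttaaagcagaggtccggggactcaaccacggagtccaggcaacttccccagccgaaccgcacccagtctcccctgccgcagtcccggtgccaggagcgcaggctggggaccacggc
Csf3r, chr4:126024409-126024658, plus strand: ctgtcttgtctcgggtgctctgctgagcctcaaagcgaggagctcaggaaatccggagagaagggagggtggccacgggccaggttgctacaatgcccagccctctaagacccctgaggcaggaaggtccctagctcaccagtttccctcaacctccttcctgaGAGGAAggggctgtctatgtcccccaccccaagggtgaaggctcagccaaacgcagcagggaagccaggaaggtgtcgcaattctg
CpG dinucleotides, the substrate of Dnmt3a, numbered 27 in the Il3ra promoter, 3 in that of Csf2rb2, 13 in that of Flt3 and 6 in that of Csf3r. The median over 32851 promoters of the same length was 6, and 91.4% held fewer than that of Il3ra. Csf3r and Csf2rb2 each had 1 match to the PU.1 core, which occurs in 23.3% of all promoters, and Il3ra had 1 to the C/EBP core, which occurs in 9.56%. AGGTCA, a half-site of retinoid receptors that occurs in 14.0%, was not among the letters of the 4 windows on either strand, and Flt3 matched none of the 3 motifs. No promoter held more than 1 match, so matches did not overlap. Methylation itself was not measured on these arrays.

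Csf1r fell without Dnmt3a in both progenitors, and with PR+/- in GMP. In CMP it had log2 levels of 6.20, 6.79 and 6.28 in Dnmt3a-/- arrays, against 8.29, 7.89 and 8.21 in WT arrays. The genotypes did not overlap, which held for 23.1% of all genes, and the highest Dnmt3a-/- array stood more than 1 log2 unit under the lowest WT array. Csf1r fell by 1.71 ± 0.18 (SE, 3 against 3 arrays; 3.27-fold lower; limma adjusted p = 5.62e-04). It was the single receptor called among the 5 measured in CMP, where 1.29% of all 15788 genes were called and 0.367% were called lower. All 28 probe sets of Csf1r were lower in Dnmt3a-/- CMP, 25 of them by more than 1 log2 unit, with differences from -2.89 to -0.21. In 26 of the 28 every Dnmt3a-/- array lay under every WT array. Since the probe sets read the same RNA samples, they describe the difference across the gene and are not further replicates.

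In GMP, Csf1r had levels of 7.60, 7.71 and 7.51 in Dnmt3a-/- arrays and of 8.68, 8.62, 8.29 and 8.31 in WT arrays. Again the groups stood apart, which held for 16.6% of all genes, at a smaller distance than in CMP. The receptor fell by 0.87 ± 0.17 (SE, 3 against 4 arrays; 1.82-fold lower; limma adjusted p = 0.0280), and all 28 probe sets were lower, 11 by more than 1. It was 1 of 5 receptors called, where 1.33% of all genes were. This call rested on single arrays: without WT replicate 1 the adjusted p was 0.0697, and without Dnmt3a-/- replicate 1, 2 or 3 it was 0.116, 0.0680 or 0.0733. With the Y-linked level as a covariate the change was -0.81 (limma adjusted p = 0.172), whereas in CMP it was -1.65 with that covariate (adjusted p = 0.0127). The difference of the Dnmt3a-/- effect between GMP and CMP was 0.84 ± 0.25 for Csf1r and was not called (limma unadjusted p = 0.00473, adjusted p = 0.433).

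PR+/- GMP had Csf1r levels of 6.71 and 6.92, against 8.68, 8.62, 8.29 and 8.31 in WT GMP. Both PR+/- arrays lay more than 1 log2 unit below every WT array, and groups without overlap were found for 28.5% of all genes. Csf1r fell by 1.66 ± 0.19 (SE, 2 against 4 arrays; 3.15-fold lower; limma adjusted p = 7.10e-04), and in each of its 28 probe sets both PR+/- arrays were under all WT arrays. In PR+/- Dnmt3a-/- GMP the levels were 6.63, 7.15, 6.90 and 6.54, which enclose those of PR+/- GMP, with a difference of -0.01 ± 0.21 (limma adjusted p = 0.992). Set against Dnmt3a-/- GMP, PR+/- Dnmt3a-/- GMP was lower by 0.80 ± 0.17 (limma adjusted p = 0.0374), a comparison added after the data were seen. That call was lost without any 1 of the 3 Dnmt3a-/- arrays or without PR+/- Dnmt3a-/- replicate 1 or 4 (adjusted p from 0.0839 to 0.166). The Dnmt3a-/- effect on Csf1r in the PR+/- background minus that in the WT background was 0.86 ± 0.25 (unadjusted p = 0.00483, limma adjusted p = 0.215).

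Over the 6 groups, Csf1r averaged highest in WT GMP (8.47 ± 0.20, SD, n = 4), then in WT CMP (8.13 ± 0.21, n = 3) and Dnmt3a-/- GMP (7.61 ± 0.10, n = 3). PR+/- GMP (6.82 ± 0.14, n = 2), PR+/- Dnmt3a-/- GMP (6.81 ± 0.28, n = 4) and Dnmt3a-/- CMP (6.42 ± 0.32, n = 3) followed, and neighbours among these last 3 overlapped, while each of the first 3 groups stood above the next. Other monocyte and macrophage genes moved with Csf1r in part. The list holds 13 genes besides Csf1r, of which 12 were measured and none averaged under background. In CMP 1 rose and 2 fell without Dnmt3a, and the mean level of the list was 6.79 to 7.09 in Dnmt3a-/- and 7.13 to 7.43 in WT arrays. In GMP the list lay at 6.78 to 6.92 in PR+/- Dnmt3a-/-, 7.30 to 7.33 in PR+/- and 7.23 to 7.36 in Dnmt3a-/- arrays, against 7.65 to 7.78 in WT arrays. Other lists shifted further in the same CMP arrays. Megakaryocyte and platelet genes, 10 measured of 11, averaged 7.57 to 7.96 in Dnmt3a-/- CMP, against 6.25 to 6.43 in WT CMP, and 5 rose. Stem and multipotent genes, all 11 measured, averaged 5.72 to 5.77 in Dnmt3a-/- CMP, against 5.06 to 5.37 in WT CMP, and 4 rose. Of 11 dendritic and class II genes 6 rose, and of 6 primary granule genes measured 3 fell (Mpo, Prtn3 and Ctsg). Of all genes 1.29% were called in Dnmt3a-/- against WT CMP. The part of these lists in the level of Csf1r was not tested, and in bulk samples fewer cells of a type and less RNA per cell cannot be told apart.

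**Figure D1:**
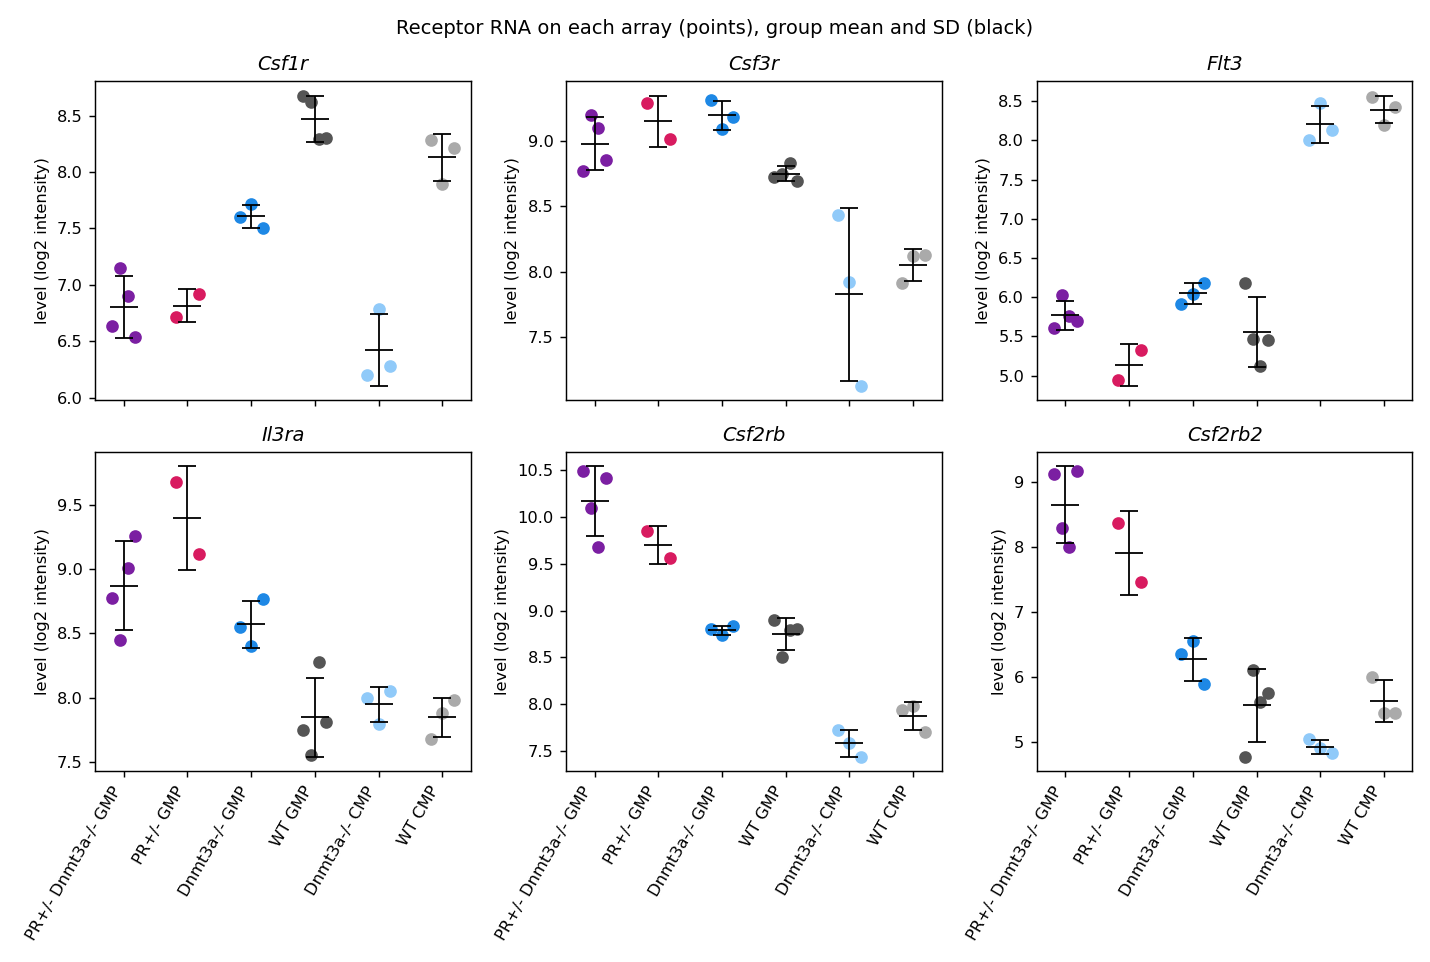
Log2 intensity (vertical axis) of each measured receptor on every array (points) in the 6 groups (horizontal axis), with the group mean and SD in black. Csf1r is highest in the 2 WT groups, Flt3 in the 2 CMP groups, and Csf2rb and Csf2rb2 are highest in the 2 PR+/- groups.

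Of the measured receptors, Flt3 had the largest difference between GMP and CMP, in WT and in Dnmt3a-/- mice. In WT mice its level was 6.18, 5.47, 5.13 and 5.45 in GMP, against 8.55, 8.20 and 8.43 in CMP. The highest GMP array stood 2 log2 units under the lowest CMP array, and groups without overlap were found for 13.9% of all genes. Flt3 fell by 2.83 ± 0.21 in GMP (SE, 4 against 3 arrays; 7.13-fold lower; limma adjusted p = 2.74e-05), the gene of rank 3 by p among 15788. With Csf2rb it made 2 of 5 receptors called between WT GMP and WT CMP, where 4.29% of all genes were called. All 26 probe sets were lower in GMP, 25 of them by more than 1, over a range of -4.85 to -0.11.

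Without Dnmt3a the progenitors stood apart too, as they did for 32.4% of all genes, with Flt3 at 5.92, 6.04 and 6.19 in GMP and at 8.01, 8.47 and 8.13 in CMP. The receptor fell by 2.15 ± 0.23 (SE, 3 against 3 arrays; limma adjusted p = 9.25e-05). In both genotypes the call held in every fit without 1 array and under all other settings run. Within 1 cell type no comparison called Flt3. The changes were -0.19 ± 0.23 in Dnmt3a-/- against WT CMP (limma adjusted p = 0.789), 0.49 ± 0.21 in Dnmt3a-/- against WT GMP (adjusted p = 0.239) and -0.42 ± 0.24 in PR+/- against WT GMP (adjusted p = 0.406). Between the PR+/- groups Flt3 had 5.60, 6.02, 5.76 and 5.69 with Dnmt3a deleted, against 4.95 and 5.32 in PR+/- GMP. These groups stood apart, as they did for 20.6% of genes, and the difference of 0.63 ± 0.19 was not called (unadjusted p = 0.0112, limma adjusted p = 0.611).

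The 4 GMP groups followed each other closely for Flt3: Dnmt3a-/- averaged 6.05 ± 0.13 (SD, n = 3), PR+/- Dnmt3a-/- 5.77 ± 0.18 (n = 4), WT 5.56 ± 0.44 (n = 4) and PR+/- 5.14 ± 0.26 (n = 2), and each neighbouring pair overlapped. WT CMP (8.39 ± 0.18, n = 3) and Dnmt3a-/- CMP (8.20 ± 0.24, n = 3) overlapped too. Dendritic and class II genes, whose cells depend on Flt3, moved along between the progenitors. All 11 in that list were measured and none averaged under background. In WT mice 7 of them fell in GMP and none rose, where 4.29% of all genes were called. Their mean level was 4.58 to 5.08 in WT GMP, against 5.84 to 6.34 in WT CMP. In Dnmt3a-/- mice it was 5.84 to 6.09 in GMP and 7.44 to 8.09 in CMP, so that the list stood higher than in WT while Flt3 was not called. The part of such cells in the difference of Flt3 was not tested.

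Csf3r rose in GMP against CMP in Dnmt3a-/- mice, and its difference in WT mice, of the same sign, did not pass. In Dnmt3a-/- mice it had levels of 9.32, 9.09 and 9.18 in GMP, against 8.44, 7.92 and 7.13 in CMP. The CMP arrays spread over more than 1 log2 unit, but none reached a GMP array, and these progenitors did not overlap for 32.4% of all genes. Csf3r rose by 1.37 ± 0.24 (SE, 3 against 3 arrays; 2.58-fold; limma adjusted p = 0.00236). WT arrays had 8.73, 8.75, 8.83 and 8.69 in GMP and 7.91, 8.12 and 8.13 in CMP. They stood apart as well, as they did for 13.9% of all genes, yet the difference of 0.69 ± 0.22 did not pass (limma adjusted p = 0.116). Fitted on these 2 groups alone it passed (adjusted p = 0.0405). The test of the difference between the genotypes did not pass for Csf3r (0.67 ± 0.33; limma unadjusted p = 0.0617, adjusted p = 0.770). Primary granule genes, which granulocyte precursors express, rose beside it in Dnmt3a-/-, while of 12 secondary granule and neutrophil genes 1 rose there and none in WT. Of all genes 10.1% were called in Dnmt3a-/- and 4.29% in WT. Of 8 primary granule genes 6 were measured, none averaged under background, and all 6 rose in Dnmt3a-/- GMP, with mean levels of 11.71 to 11.77, against 9.54 to 9.74 in Dnmt3a-/- CMP. In WT mice 1 of the 6 rose, at 11.34 to 11.57 in GMP and 9.66 to 10.97 in CMP, and the part of these cells in the level of Csf3r was not tested.

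No comparison within a cell type called Csf3r. In GMP its levels were 8.77, 9.20, 9.10 and 8.86 in PR+/- Dnmt3a-/-, 9.29 and 9.01 in PR+/-, and, as above, 9.09 to 9.32 in Dnmt3a-/-, against 8.69 to 8.83 in WT. Both PR+/- arrays and all 3 Dnmt3a-/- arrays thus lay above the WT arrays, while those of PR+/- Dnmt3a-/- overlapped them. Such gaps from WT GMP, in either direction, were found for 28.5% of all genes in PR+/- and 16.6% in Dnmt3a-/- GMP. The 12 secondary granule and neutrophil genes lay likewise, at means of 8.31 to 9.28 in PR+/- Dnmt3a-/-, 9.55 to 9.63 in PR+/- and 9.54 to 10.68 in Dnmt3a-/- GMP, against 8.40 to 8.76 in WT GMP. Of them 5 rose in Dnmt3a-/- and 1 in PR+/- against WT GMP, where 1.33% and 3.12% of all genes were called. The part of these 12 genes in the level of Csf3r was not tested. Dnmt3a-/- replicate 1 stood apart on this list, at 10.68 in GMP and 10.82 in CMP, and had the highest Csf3r of its group in both. Without it Csf3r differed by 0.39 in Dnmt3a-/- against WT GMP (limma adjusted p = 0.579) and by -0.53 in CMP (adjusted p = 0.365). The changes were 0.40 ± 0.16 in PR+/- against WT (limma adjusted p = 0.201), 0.45 ± 0.22 in Dnmt3a-/- against WT (adjusted p = 0.299) and -0.17 ± 0.19 in PR+/- Dnmt3a-/- against PR+/- (adjusted p = 0.801). In CMP the change was -0.23 ± 0.24 in Dnmt3a-/- against WT (adjusted p = 0.753), and it was 0.12 without Dnmt3a-/- replicate 3. The order of group means ran from Dnmt3a-/- GMP (9.20 ± 0.11, SD, n = 3) through PR+/- GMP (9.15 ± 0.20, n = 2), PR+/- Dnmt3a-/- GMP (8.98 ± 0.20, n = 4) and WT GMP (8.75 ± 0.06, n = 4) to WT CMP (8.06 ± 0.12, n = 3) and Dnmt3a-/- CMP (7.83 ± 0.66, n = 3). Of these neighbours WT GMP and WT CMP were the single pair that did not overlap.

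Il3ra averaged 7.85 in both WT GMP and WT CMP, and it rose with PR+/-. It had 9.68 and 9.11 in PR+/- GMP, against 7.75, 7.56, 8.28 and 7.81 in WT GMP. Both PR+/- arrays stood above every WT array, and 28.5% of all genes had no overlap between these groups in either direction. Il3ra rose by 1.55 ± 0.25 (SE, 2 against 4 arrays; 2.93-fold; limma adjusted p = 0.00563). Together with Csf1r and Csf2rb it made 3 of 5 receptors called in PR+/- against WT GMP, where 3.12% of all genes were called, 2.24% higher and 0.887% lower. All 10 probe sets were higher, 6 by more than 1, and in 9 both PR+/- arrays were above all WT arrays. The call depended on PR+/- replicate 1, without which the change was 1.27 (limma adjusted p = 0.173).

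Dnmt3a-/- GMP had Il3ra levels of 8.55, 8.40 and 8.76. All 3 lay above the WT GMP arrays, and 16.6% of all genes had no overlap there in either direction. The difference of 0.72 ± 0.17 stayed short of the threshold (limma adjusted p = 0.0552). It passed without WT replicate 3 (0.87, adjusted p = 0.0183), the highest of the WT arrays. In PR+/- Dnmt3a-/- GMP the levels were 8.77, 8.44, 9.01 and 9.26, which overlap those of PR+/- GMP and of Dnmt3a-/- GMP. PR+/- Dnmt3a-/- GMP differed by -0.52 ± 0.27 from PR+/- (limma adjusted p = 0.644) and by 0.30 ± 0.22 from Dnmt3a-/- (adjusted p = 0.554). For Il3ra the Dnmt3a-/- effect in the PR+/- background minus that in the WT background was -1.25 ± 0.33 and was not called (unadjusted p = 0.00243, limma adjusted p = 0.195).

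In CMP, Il3ra had 7.996, 7.80 and 8.05 in Dnmt3a-/- arrays and 7.68, 7.88 and 7.98 in WT arrays. The genotypes overlapped, with a difference of 0.10 ± 0.18 (limma adjusted p = 0.868). Between GMP and CMP the difference was -0.0014 ± 0.17 in WT mice (adjusted p = 0.998). In Dnmt3a-/- mice Il3ra rose in GMP by 0.62 ± 0.18 (adjusted p = 0.0434), a call lost in each of the 6 fits without 1 array (adjusted p from 0.0603 to 0.162). Group means ran from PR+/- GMP (9.40 ± 0.40, SD, n = 2) through PR+/- Dnmt3a-/- GMP (8.87 ± 0.35, n = 4) and Dnmt3a-/- GMP (8.57 ± 0.18, n = 3) to Dnmt3a-/- CMP (7.95 ± 0.14, n = 3), WT CMP (7.85 ± 0.15, n = 3) and WT GMP (7.85 ± 0.31, n = 4). The single gap without overlap in this order lay between Dnmt3a-/- GMP and Dnmt3a-/- CMP, which did not overlap for 32.4% of all genes.

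Csf2rb, the shared beta chain, was higher in GMP than in CMP and higher again with PR+/-. Its level in WT mice was 8.90, 8.50, 8.80 and 8.81 in GMP, against 7.94, 7.98 and 7.71 in CMP. Every GMP array exceeded every CMP array, and the WT progenitors did not overlap for 13.9% of all genes. Csf2rb rose in GMP by 0.88 ± 0.13 (SE, 4 against 3 arrays; 1.84-fold; limma adjusted p = 0.00209), with all 7 probe sets higher. With the median of the probe sets in place of their mean the call was lost (adjusted p = 0.149). In Dnmt3a-/- mice it had 8.80, 8.74 and 8.83 in GMP and 7.73, 7.58 and 7.44 in CMP, a rise of 1.21 ± 0.14 (adjusted p = 1.56e-04). All 5 measured receptors were called between Dnmt3a-/- GMP and Dnmt3a-/- CMP, Csf1r, Csf2rb, Csf3r and Il3ra higher and Flt3 lower, where 10.1% of all genes were called; Csf1r rose there by 1.18 ± 0.18 (adjusted p = 9.27e-04), against 0.34 ± 0.17 in WT mice (adjusted p = 0.343). The test of the difference in the cell type effect between the genotypes passed for none of the 5 receptors and for none of 15788 genes by limma, with 3 receptors (Csf1r, Il3ra and Flt3) and 6.86% of genes at an unadjusted p below 0.05.

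PR+/- GMP had Csf2rb levels of 9.85 and 9.56 and PR+/- Dnmt3a-/- GMP of 10.49, 10.09, 9.68 and 10.42. All 6 PR+/- arrays were above all 7 GMP arrays without PR, which held for 1.6% of all genes. Against WT GMP, Csf2rb rose in PR+/- GMP by 0.95 ± 0.21 (SE, 2 against 4 arrays; 1.93-fold; limma adjusted p = 0.0301). The call did not hold in 5 of the 6 fits that left out an array (adjusted p from 0.0539 to 0.386), and 0.80 was the change without PR+/- replicate 1. Against Dnmt3a-/- GMP, Csf2rb rose in PR+/- Dnmt3a-/- GMP by 1.38 ± 0.19 (4 against 3 arrays; 2.61-fold; adjusted p = 0.00371), a comparison in which 2 of 5 receptors were called against 1.24% of all genes; arrays of the 2 groups stood apart for 14.8%. The call for Csf2rb held in each fit without 1 array and was lost with the Y-linked level as a covariate (adjusted p = 0.0805) and without the 5 arrays with high immediate early genes (adjusted p = 0.0567). Loss of Dnmt3a alone left Csf2rb with differences of 0.04 ± 0.13 in GMP (adjusted p = 0.895) and -0.29 ± 0.14 in CMP (adjusted p = 0.382).

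The paralogue Csf2rb2 showed the widest span of the receptors looked at, with group means that ranged over 3.73 log2 units, a range exceeded by 0.291% of all genes. It had 8.37 and 7.46 in PR+/- GMP and 9.13, 8.30, 8.01 and 9.18 in PR+/- Dnmt3a-/- GMP. In Dnmt3a-/- GMP it had 6.36, 6.55 and 5.89, and in WT GMP 4.77, 6.10, 5.62 and 5.75. The PR+/- arrays again lay above the 7 GMP arrays without PR. Csf2rb2 rose by 2.35 ± 0.41 in PR+/- against WT GMP (5.11-fold; limma adjusted p = 0.00827) and by 2.39 ± 0.36 in PR+/- Dnmt3a-/- against Dnmt3a-/- GMP (5.23-fold; adjusted p = 0.00702). The first of these calls was lost without PR+/- replicate 1 (1.90, adjusted p = 0.232). The second was lost with the Y-linked level as a covariate (adjusted p = 0.119) and without the 5 arrays with high immediate early genes (adjusted p = 0.0530).

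The 2 beta chains did not move alike throughout. In WT mice Csf2rb rose in GMP against CMP, while Csf2rb2 had a difference of -0.07 ± 0.27 (limma adjusted p = 0.943) and 3 of its 7 probe sets were higher. In Dnmt3a-/- mice Csf2rb2 rose in GMP by 1.35 ± 0.29 (adjusted p = 0.00849), with 6.36, 6.55 and 5.89 in GMP and 5.03, 4.91 and 4.82 in CMP. How far probe sets of one chain read RNA of the other was not tested. Mean levels of Csf2rb ran from PR+/- Dnmt3a-/- GMP (10.17 ± 0.37, SD, n = 4) and PR+/- GMP (9.70 ± 0.21, n = 2), which overlapped, over Dnmt3a-/- GMP (8.79 ± 0.05, n = 3) and WT GMP (8.75 ± 0.17, n = 4), which overlapped, to WT CMP (7.88 ± 0.15, n = 3) and Dnmt3a-/- CMP (7.58 ± 0.14, n = 3), which overlapped as well.

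Basophil and mast cell genes, whose cells respond to IL-3, moved with Il3ra and the beta chains in part. All 10 in the list were measured and none averaged under background, and Kit and Gata2 among them are also made by progenitors. In PR+/- against WT GMP 5 rose and none fell. Of all genes 3.12% were called there, 1.33% in Dnmt3a-/- against WT GMP and 4.29% between the WT progenitors. The mean level of the list was 8.03 to 8.66 in PR+/- Dnmt3a-/-, 8.41 to 8.47 in PR+/- and 8.02 to 8.50 in Dnmt3a-/- GMP, against 6.95 to 7.32 in WT GMP. In Dnmt3a-/- against WT GMP 3 rose and the mean of the list differed without overlap, while none of Il3ra, Csf2rb and Csf2rb2 was called. Between the WT progenitors 4 rose and 2 fell in GMP, with a mean of 6.95 to 7.32 in WT GMP, against 5.60 to 6.43 in WT CMP, where Csf2rb rose and the differences of Il3ra and Csf2rb2 were close to 0. The 5 eosinophil genes measured, of 8, lay at 6.15 to 7.64 in PR+/- Dnmt3a-/-, 6.92 to 7.31 in PR+/- and 6.98 to 7.22 in Dnmt3a-/- GMP, against 5.64 to 7.04 in WT GMP. What part these cells have in the receptor values was not tested.

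**Figure D2:**
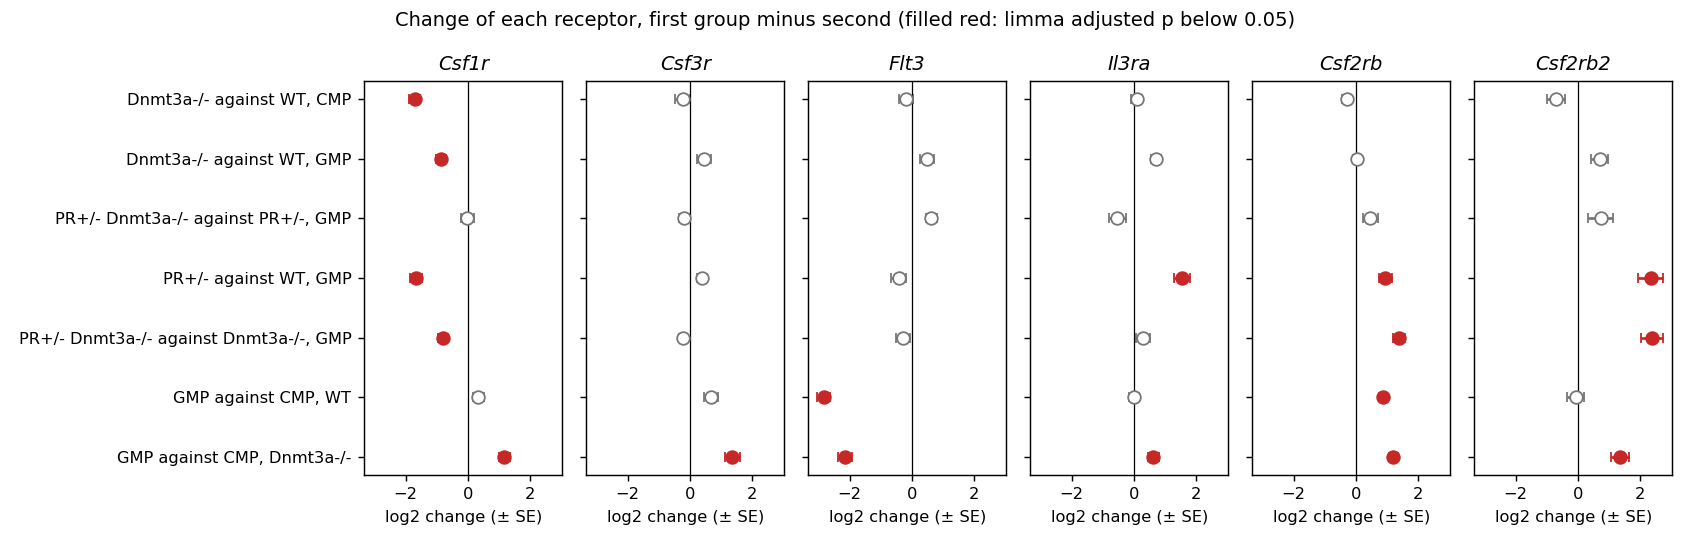
Log2 change with its SE (horizontal axis) of each receptor (panels) in 7 comparisons (rows), as the group named first minus the one named second. Filled red points passed a limma adjusted p of 0.05, among them Csf1r in Dnmt3a-/- against WT, in CMP and in GMP. Il3ra, Csf2rb and Csf2rb2 passed in PR+/- against WT GMP.

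Deleting Dnmt3a in the PR+/- background called none of the 5 receptors, and none of 15788 genes, by limma. Dnmt3a itself was thus not called, though it lay at 5.82 to 6.26 in PR+/- Dnmt3a-/- and 7.07 to 7.20 in PR+/- GMP. This fit of 4 against 2 arrays missed a difference of that size. Its lack of calls cannot show that the receptors were unchanged. At an unadjusted p below 0.05 there were 1 receptor, Flt3, and 7.95% of all genes. Besides the values given above, Csf2rb was higher by 0.47 ± 0.25 and Csf2rb2 by 0.74 ± 0.41 in PR+/- Dnmt3a-/- than in PR+/- GMP (adjusted p = 0.654 for both). The test of the difference in the Dnmt3a-/- effect between the PR+/- and the WT background passed for 0 of 5 receptors by limma, with 0.0317% of all genes called. Unadjusted p-values below 0.05 were reached there by Csf1r, Il3ra and Csf3r (-0.62 ± 0.21; adjusted p = 0.253), 3 of 5, against 14% of all genes.

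**Figure D3:**
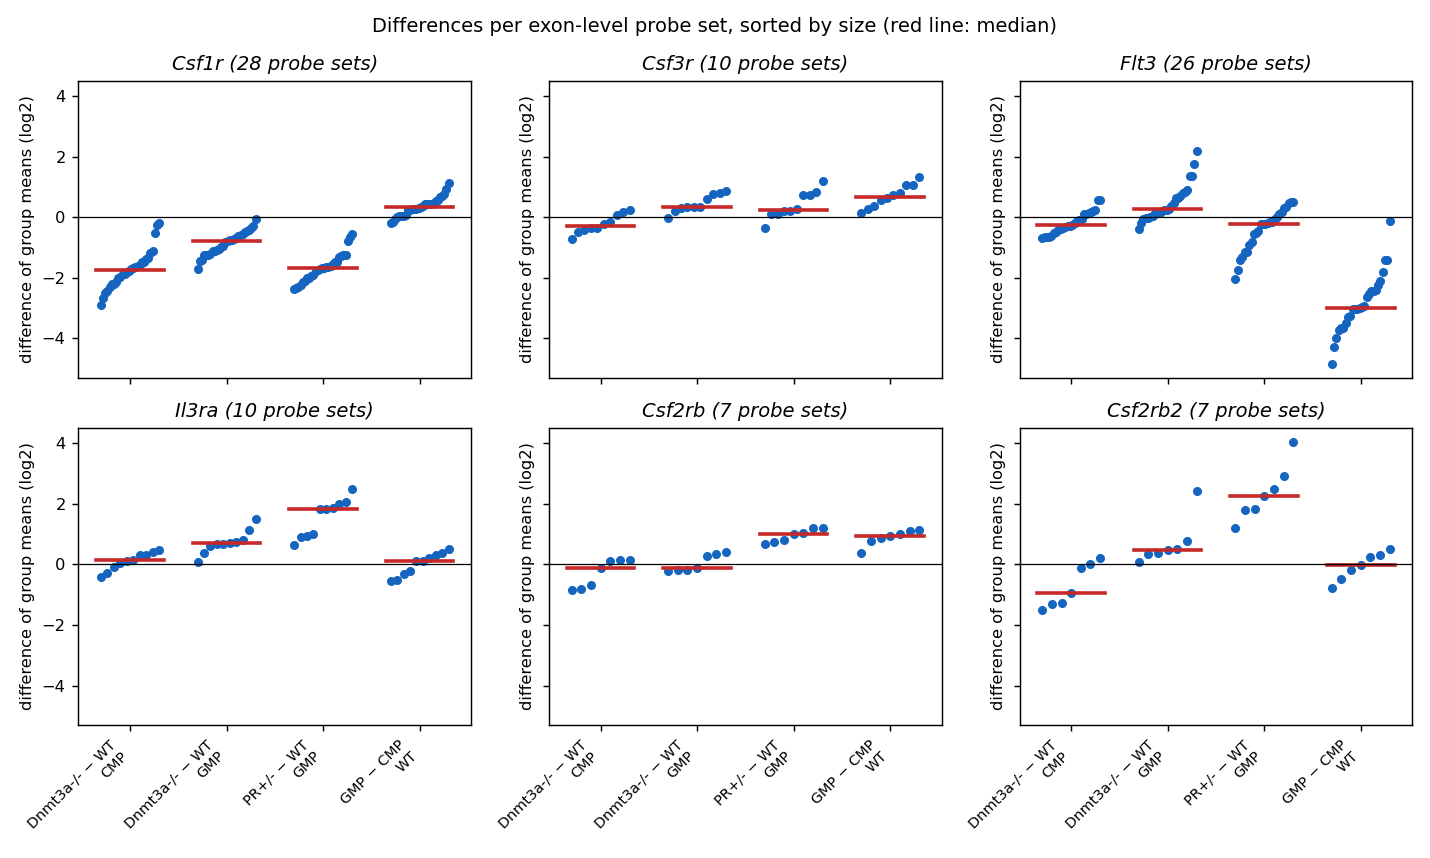
Difference of group means on the log2 scale (vertical axis) for every probe set of a receptor (points, sorted by size), with the median in red, in 4 comparisons (horizontal axis). All 28 probe sets of Csf1r lie below 0 in the first 3 comparisons, and all 26 of Flt3 lie below 0 in GMP minus CMP.

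Among the ligands of these and related receptors, 10 of 11 in the list were measured. In PR+/- against WT GMP 2 rose and none fell: Csf1, the ligand of Csf1r, and the inflammatory cytokine Il6. Of all genes 2.24% were called higher in that comparison and 0.887% lower. Csf1 had 7.56 and 6.99 in PR+/- GMP and 8.28, 7.62, 7.47 and 8.02 in PR+/- Dnmt3a-/- GMP, against 6.31, 6.27 and 5.63 in Dnmt3a-/- GMP and 5.20, 6.13, 5.26 and 5.65 in WT GMP. The 6 PR+/- arrays were all above the other GMP arrays, as for the 1.6% of all genes given above. Csf1 rose by 1.71 ± 0.31 in PR+/- against WT GMP (limma adjusted p = 0.0101) and by 1.78 ± 0.27 in PR+/- Dnmt3a-/- against Dnmt3a-/- GMP (adjusted p = 0.00771). Il6 rose by 2.33 ± 0.50 in PR+/- against WT GMP (adjusted p = 0.0247). PR+/- GMP holds 2 arrays, and fits without 1 array were looked at gene by gene only for the measured receptors of the set and Csf2rb2. How far calls of other listed genes, here and below, rest on a single array was not tested. Flt3l, the ligand of Flt3, fell with its receptor in GMP against CMP, by 0.79 ± 0.20 in WT mice (adjusted p = 0.0449), and changed by -1.08 ± 0.22 in Dnmt3a-/- mice (adjusted p = 0.00574). Other ligands rose in GMP against CMP: Csf2 and Il6 in WT mice, and Csf1 and Il6 in Dnmt3a-/- mice. Csf2 and Il6 averaged 2.55 and 2.40 in WT CMP, near the background. The shares of all genes called were 4.29% in WT and 10.1% in Dnmt3a-/- mice. In Dnmt3a-/- against WT no ligand rose in CMP or GMP, where 1.29% and 1.33% of all genes were called. Of the ligands 1, Epo, fell in CMP, at levels of 2.54 in Dnmt3a-/- and 3.15 in WT CMP that lie about the background.

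Other cytokine receptors, 28 measured of 32, gave 4 that rose and 1 that fell in PR+/- against WT GMP. Of all genes 2.24% were called higher there and 0.887% lower. Il2rg, the gamma chain shared by the receptors for IL-2, IL-4 and IL-7, rose by 1.94 ± 0.23 (limma adjusted p = 9.95e-04), with levels of 9.94 and 9.54 in PR+/- GMP, against 8.05, 7.85, 7.67 and 7.64 in WT GMP. Il18r1, a chain of the IL-18 receptor, rose by 2.08 ± 0.39 (adjusted p = 0.0129), and the others were Csf2rb2 and Il7r. Il6st, the signal chain shared by the IL-6 family, fell by 1.45 ± 0.22 with PR+/- (adjusted p = 0.00455), with changes of -1.19 ± 0.19 in Dnmt3a-/- against WT GMP (adjusted p = 0.00861) and -0.98 ± 0.20 in Dnmt3a-/- against WT CMP (adjusted p = 0.0329). Its levels were 6.78 and 6.75 in PR+/- GMP and 7.04, 7.26 and 6.78 in Dnmt3a-/- GMP, against 8.20, 8.44, 8.13 and 8.11 in WT GMP. Like Csf1r, it was lower in GMP of both mutants without overlap. Groups without overlap, in either direction, were found for 28.5% of all genes with PR+/- and 16.6% in Dnmt3a-/- GMP. In Dnmt3a-/- against WT, 1 of the 28 rose and 1 fell in CMP, and 1 rose and 1 fell in GMP. Of all genes 1.29% were called in CMP and 1.33% in GMP.

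Among genes downstream of the receptors few passed between genotypes. Of 21 signalling genes measured of 26, none passed in Dnmt3a-/- against WT CMP or GMP, and 1, the kinase Mapk3, rose with PR+/- (0.82 ± 0.19; limma adjusted p = 0.0328). The shares of all genes called were 1.29%, 1.33% and 3.12%. The medians of this list were 0.10, 0.19 and 0.52 in these 3 comparisons, beside -0.04, -0.07 and 0.00 over all genes. Of 18 feedback and target genes measured of 21, none passed without Dnmt3a and Ccnd3, a cyclin of the early cell cycle, rose with PR+/- (1.16 ± 0.22; adjusted p = 0.0132). Between WT GMP and WT CMP the inhibitor Cish, a target of Stat5, fell by 0.73 ± 0.19 (adjusted p = 0.0452). Cbl rose and Dok2 fell there, where 4.29% of all genes were called. In Dnmt3a-/- mice, where 10.1% were called, the signalling genes Fes and Mapk3 rose in GMP against CMP, and Dok2 and Jak2 fell. Of the feedback and target genes Spry2 rose there, and Bcl2 and Cish fell.

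Transcription factors of myeloid and stem cell development, 18 measured of 19, gave 3 that rose and 1 that fell in Dnmt3a-/- against WT GMP, and 2 of each in PR+/- against WT GMP. Of all genes 1.33% and 3.12% were called in these comparisons. Irf8, which directs monocyte and dendritic development, fell by 1.18 ± 0.24 in Dnmt3a-/- (limma adjusted p = 0.0341) and changed by -1.97 ± 0.42 in PR+/- (adjusted p = 0.0232). Gata2, a factor of stem cells and mast cells, rose by 1.12 ± 0.24 in Dnmt3a-/- (adjusted p = 0.0390) and by 2.26 ± 0.30 in PR+/- (adjusted p = 0.00169), and Gata1 rose by 1.11 ± 0.24 in Dnmt3a-/- (adjusted p = 0.0386) and by 1.17 ± 0.23 in PR+/- (adjusted p = 0.0156). None of the 18 was called in Dnmt3a-/- against WT CMP, where 1.29% of all genes were called and 8 of the 18 had a change above 0. Irf8 averaged 9.09 in Dnmt3a-/- and 9.16 in WT CMP. Cebpa had 6.91, 6.77 and 7.05 in Dnmt3a-/- CMP, against 7.36, 7.55 and 7.45 in WT CMP. These groups did not overlap, as for 23.1% of all genes. The part of these factors in the level of Csf1r was not tested. In WT GMP against WT CMP 2 of the 18 rose and 4 fell, where 4.29% of all genes were called. Gata1, Meis1, Gata2 and Hoxa9 fell there, and Gfi1 and Spi1 rose. Gata1 changed by -2.38 ± 0.24 (limma adjusted p = 2.28e-04), and Spi1, which encodes PU.1, rose by 0.53 ± 0.13 (adjusted p = 0.0397).

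**Figure D4:**
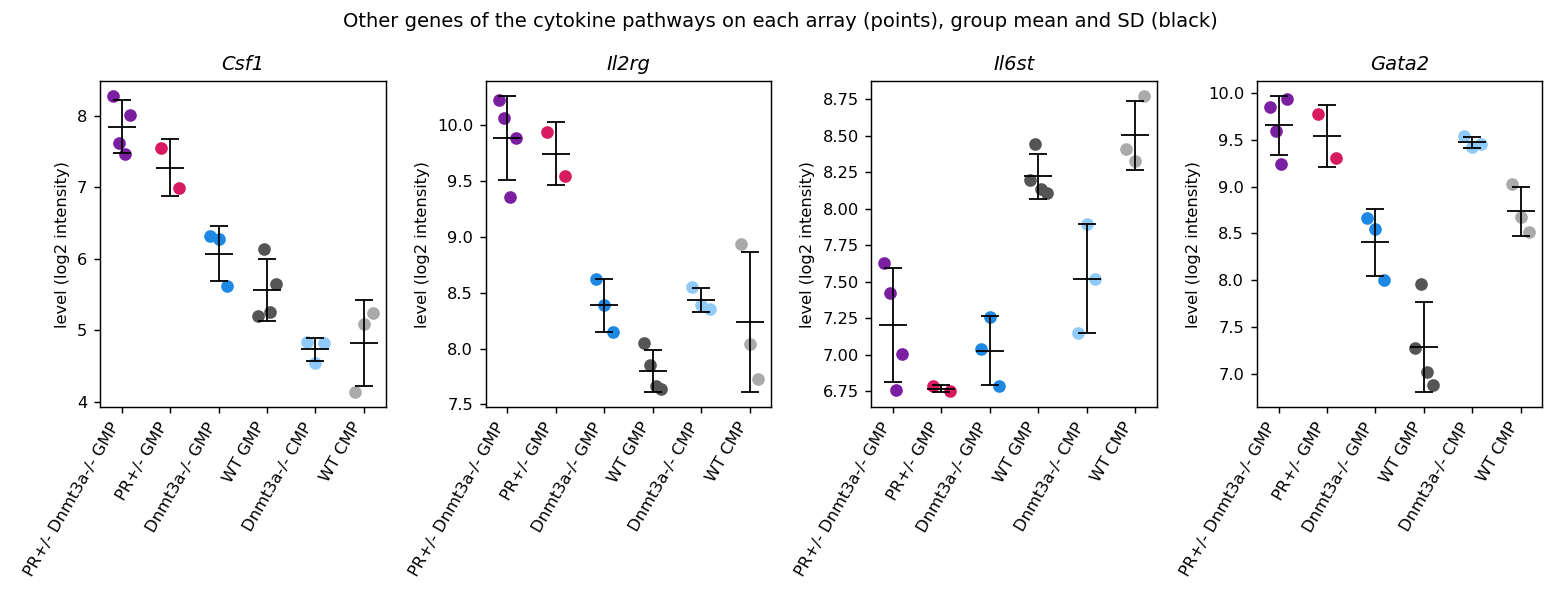
Log2 intensity (vertical axis) of 4 other genes of these pathways on every array (points) in the 6 groups (horizontal axis), with the group mean and SD in black. Csf1 and Il2rg are highest in the 2 PR+/- groups, Il6st is highest in the 2 WT groups, and Gata2 is lowest in WT GMP.

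The genes whose levels followed each receptor most closely were looked up over the 19 arrays, among 14848 genes above background. The arrays fall into 6 groups and are not independent points, so the correlations are given as a description. For Csf1r these were Fbxw4 (r = 0.92), Synj2 (0.90) and B4galt4 (0.89). Those of Flt3 were Nol4l (0.96), the water channel Aqp1 (0.95) and the kinase Prkcq (0.95), and those of Csf3r were the myeloid receptor Trem3 (0.93), Gda (0.91) and the granule protease inhibitor Serpinb1a (0.91). Il3ra was followed by Wipi1 (0.95), Mical1 (0.93) and the prostacyclin receptor Ptgir (0.93). Csf2rb was followed by Cntnap1 (0.95), Pde6d (0.94) and the adhesion molecule Cdh1 (0.93), which averaged 10.18 in PR+/- GMP, against 5.63 in WT GMP. For Csf2rb2 they were the proton pump subunit Atp6v0a1 (0.95), Ankrd27 (0.94) and Csf1 (0.94).

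Taken over all groups, the receptors varied more than most genes. The group means of Flt3 spanned 3.26 log2 units, of Csf2rb 2.59, of Csf1r 2.05, of Il3ra 1.55 and of Csf3r 1.37, beside a median of 0.53 over all genes. A span wider than that of Flt3 was found in 0.519% of all genes, than that of Csf2rb in 1.18%, of Csf1r in 2.60%, of Il3ra in 5.33% and of Csf3r in 7.29%.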

How the data were processed

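RNA of 19 samples was amplified from 20 ng and hybridised to exon arrays, per the labels' protocols. The table deposited by the authors holds 1 linear intensity for each of 194293 probe sets and array; per the submitters' processing notes RMA, Partek and mm9 were involved, with no role or version given. Array medians lay between 53.0 and 56.8, so values were used as deposited. The log2 was taken and averaged over the probe sets with 1 gene symbol, which gave 15788 genes, with symbols updated through RefSeq (GRCm38.p6): 13906 were found as annotated, 2146 updated and 45 kept. The 1229 probe sets with several symbols and the 13469 with none were left out. The number of arrays limits the precision.

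Groups follow the labels. Tests were two-sided and used lmFit and eBayes of limma 3.58.1 under R 4.3.3; p-values were adjusted after Benjamini and Hochberg across all genes, with a threshold of 0.05. Comparisons of CMP and GMP used 1 fit of 13 arrays, PR+/- Dnmt3a-/- against PR+/- its 6 arrays, and other PR+/- comparisons the 13 GMP arrays. The script was tested on simulated data. Members, gene lists and tests were chosen with earlier results of these data known, and 2 comparisons (PR+/- Dnmt3a-/- against Dnmt3a-/- GMP, and GMP against CMP in Dnmt3a-/-) were added after the data were seen. The text names all members, Csf2rb2, at most 6 called genes of smallest adjusted p per list and comparison, and the 3 most alike genes per receptor. Alternatives covered the summary of probe sets, dim genes, quantile normalization, the arrays fitted, weights, the Y-linked level, pairing and leaving out arrays.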

Additional observations from a re-analysis of the deposited data

How the results depend on the processing

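Of 54 single-gene changes, 17 were called, and none of the 17 changed sign under any alternative run. Of 984 values under alternatives, 895 kept their direction and side of the threshold, 44 lost the call, 6 gained one and 39 changed sign. Csf1r in Dnmt3a-/- against WT CMP and in PR+/- against WT GMP, and Flt3, in GMP against CMP of either genotype, were called under every alternative run, as were Csf1r, Csf3r, Csf2rb and Csf2rb2 in GMP against CMP in Dnmt3a-/-. Csf1r in Dnmt3a-/- against WT GMP was called in 10 of 18, Csf2rb in PR+/- against WT GMP in 7 of 16, Csf1r and Csf2rb2 in PR+/- Dnmt3a-/- against Dnmt3a-/- GMP in 8 and 15 of 17, and Il3ra in GMP against CMP in Dnmt3a-/- in 6 of 17. In Dnmt3a-/- against WT GMP the number of members called was 0 with the median of the probe sets, with only the groups compared, with the Y-linked covariate and without the 5 arrays set apart by immediate early genes, 2 with dim genes left out or with array weights, and 0 to 2 without 1 array. With the median of the probe sets, 1 member was called in GMP against CMP in WT. Without 1 array it was 1 to 3 in PR+/- against WT GMP, the lowest without PR+/- replicate 1. In PR+/- Dnmt3a-/- against Dnmt3a-/- GMP it was 1 with the median or only the groups compared, 0 with the Y-linked covariate or without the 5 arrays, and 1 to 2 without 1 array. The sign changes concern differences near 0. With the median they were Flt3 in Dnmt3a-/- against WT CMP (0.063), Csf2rb in Dnmt3a-/- against WT GMP (-0.18), Csf2rb2 in GMP against CMP in WT (0.11) and Csf1r in PR+/- Dnmt3a-/- against PR+/- (0.038). With the brighter probe sets the same 3 last comparisons gave -0.048 for Csf2rb, 0.068 for Csf2rb2 and 0.023 for Csf1r, and Il3ra in GMP against CMP in WT was 0.16. Array weights gave -0.028 for Csf2rb in Dnmt3a-/- against WT GMP, 0.025 for Il3ra and 0.10 for Csf2rb2 in GMP against CMP in WT, and -0.11 for Csf2rb2 in the difference of the Dnmt3a-/- effect between backgrounds. The Y-linked covariate gave 0.0040 for Il3ra in GMP against CMP in WT and -0.077 for Csf2rb2 in that difference. Without these 5 arrays Csf2rb in Dnmt3a-/- against WT GMP was -0.012, Il3ra and Csf2rb2 in GMP against CMP in WT were 0.11 and 0.24, and Flt3 in that difference was -0.17. Leaving out 1 array gave -0.53 to 0.12 for Csf3r in Dnmt3a-/- against WT CMP, -0.045 to 0.087 for Csf2rb in Dnmt3a-/- against WT GMP, -0.14 to 0.10 for Il3ra and -0.25 to 0.20 for Csf2rb2 in GMP against CMP in WT, -0.12 to 0.092 for Csf1r in PR+/- Dnmt3a-/- against PR+/-, and -0.42 to 0.49 for Csf2rb2 and -0.063 to 0.33 for Flt3 in the difference between backgrounds. The cause of these shifts was not tested.

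The PR+/- and PR+/- Dnmt3a-/- arrays share the replicate numbers 1 and 2, and were not taken as pairs. Deviations from the group means correlated at r = 0.0773 and 0.0169 between arrays of the same number. Deviations of the 2 PR+/- arrays mirror each other, so these values cannot show whether the numbers mark pairs. With the replicate block 0 members were called, as without it, and Csf1r differed by 0.076. Adjacent title numbers link Dnmt3a-/- CMP with GMP arrays. Taken as pairs (estimated correlation 0.181) they changed no call of a receptor, and 2063 genes were called in GMP against CMP in Dnmt3a-/-, against 1591 as reported. The count over all genes ran from 61 to 1063 in Dnmt3a-/- against WT CMP (203 as reported), 48 to 1739 in GMP (210), 261 to 742 in GMP against CMP in WT (678), 969 to 3856 in Dnmt3a-/- (1591), 43 to 1046 in PR+/- against WT GMP (493 as reported), 11 to 937 in PR+/- Dnmt3a-/- against Dnmt3a-/- (195) and 0 to 21 against PR+/- (0), with 0 to 48 and 0 to 40 for the differences of the Dnmt3a-/- effect between cell types (0) and backgrounds (5). A group of 2 or 3 arrays limits what could pass.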
